A study of Mus musculus with 9 samples.

Results

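The genes described here are the matrix metalloproteinases (MMPs), the ADAMTS and ADAMTS-like proteins, the tissue inhibitors of metalloproteinases (TIMPs) and the lysyl oxidases, measured in mouse ear. They were taken by symbol from the protein-coding genes of the count table, which gave 55 of 55401 features: 22 MMPs, 19 ADAMTS, 5 ADAMTS-like, 4 TIMPs and 5 lysyl oxidases. Of these, 52 passed the filter on low counts. Mmp7, Mmp20 and Mmp21 had no count in any library. The 9 libraries of ear messenger RNA from C57 mice form 3 groups of 3. The controls had absolute ethyl alcohol. The MC903 group received MC903 (calcipotriol), a vitamin D analogue that is applied to mouse skin as a model of atopic dermatitis. The last group received MC903 together with paeonol, a phenol from peony bark, at 200 mg/kg. The series title places the study in atopic dermatitis and itch. No group received paeonol alone, and neither age nor sex is given in the labels, nor is a genotype beyond C57. Whether the libraries of a group come from different mice is not stated in the labels. The p-values therefore reflect the spread between these libraries, which may be technical.

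MMPs are zinc-dependent endopeptidases that cut collagen, elastin and other matrix and cell-surface proteins, and most are made as inactive precursors. ADAMTS enzymes cut proteoglycans and the propeptides of collagens, and TIMPs bind the active site of MMPs and of some ADAM and ADAMTS enzymes. Lysyl oxidases crosslink collagen and elastin, so that in skin the balance of these families sets how matrix is laid down and removed.

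Levels are in CPM, the usual unit of counts relative to library size, here with TMM (trimmed mean of M values) scaling, where 1 CPM is 51.09 to 62.48 counts depending on the library. Changes are log2 values ± SE from edgeR's quasi-likelihood test on 21925 genes. A gene counts as called when its p, adjusted by Benjamini-Hochberg over all of them, is under 0.05. Library totals were 54264605 to 57745225 estimated counts. The ear is a mixed tissue, and in such bulk RNA fewer cells of a type and less RNA per cell cannot be told apart. The comparisons of MC903 with control and of paeonol with MC903 use the same MC903 libraries, so their values are given side by side and are not independent.

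With MC903, 37 of the 52 tested members were called, 18 higher and 19 lower than in control (71.2%), against 46.8% of all genes tested (23% higher, 23.8% lower). With paeonol, 33 members were called against MC903, 10 higher and 23 lower (63.5%), where 29.7% of all genes were called (15.3% higher, 14.3% lower). Between paeonol and control 22 members were called, 2 higher and 20 lower (42.3%), beside 30.9% of all genes (16.3% higher, 14.5% lower). The median log2 change of the members was -0.012 for MC903 versus control, -0.43 for paeonol versus MC903 and -0.44 for paeonol versus control. Over all genes tested, those medians were -0.015, 0.0024 and -0.035. Called changes of at least 2-fold numbered 23 with MC903 (13 higher, 10 lower), while 17% of all genes met that limit. Against MC903, 19 members met it with paeonol (3 higher, 16 lower), beside 8.47% of all genes. The member libraries did not overlap between MC903 and control for 42 members, and 58.1% of all genes had groups apart in that way. The same held for 34 members between paeonol and MC903, beside 43.9% of all genes, and for 29 members between paeonol and control, beside 46.4%.

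**Figure D1:**
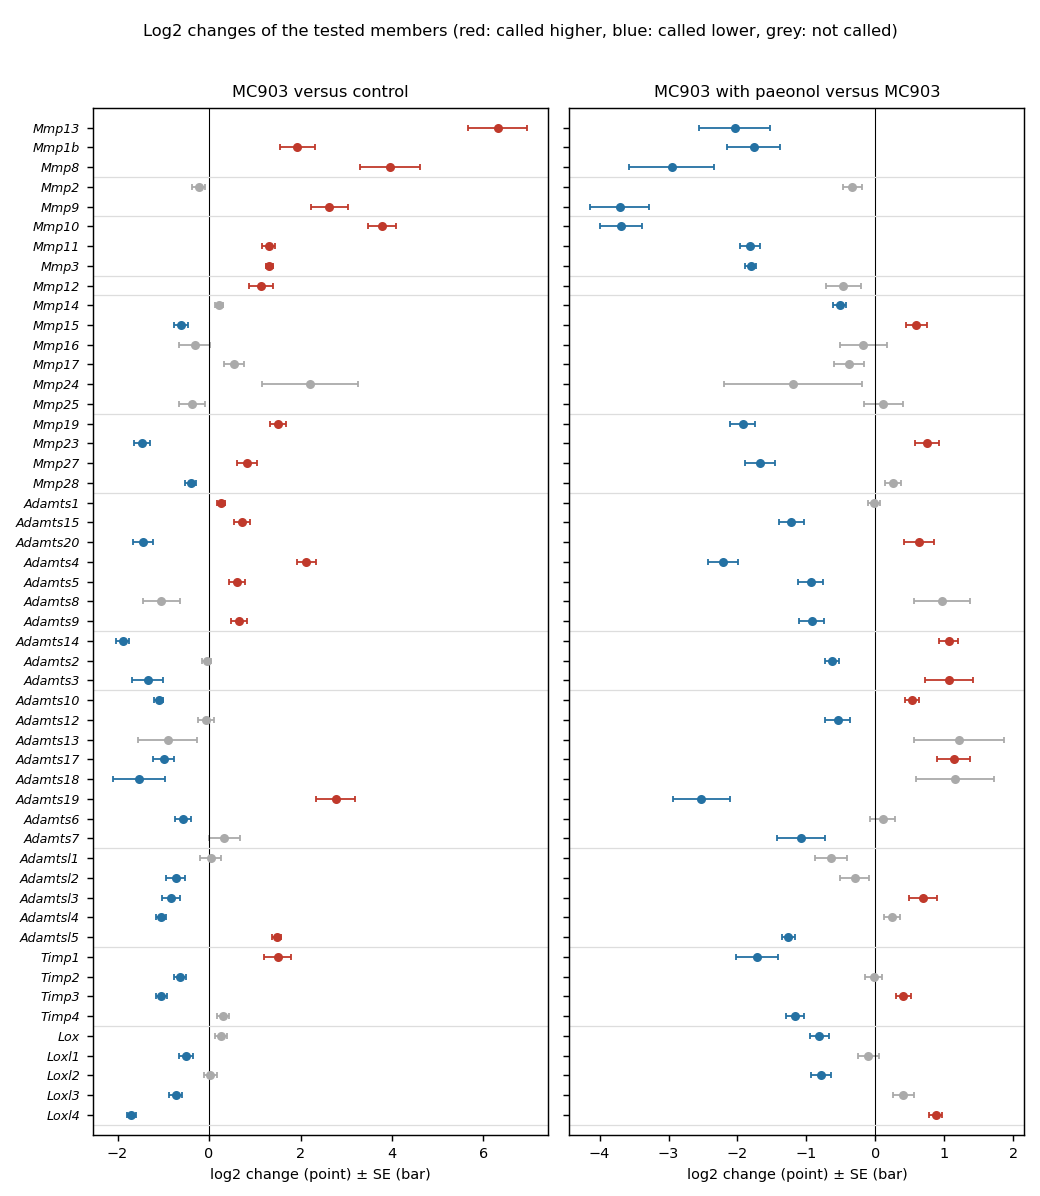
Log2 change with SE of the tested members, ordered by role. The first panel shows MC903 versus control and the second MC903 with paeonol versus MC903. Points are red when called higher, blue when called lower and grey when not called. Adamts16, which had no count in the MC903 libraries, is left out. Collagenases and stromelysins lie to the right with MC903 and to the left with paeonol, and Adamts14 and Loxl4 lie the other way round.

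Many of the wide changes lay in a run of MMP genes on chromosome 9. All 9 protein-coding genes between chr9:7272514-7699585 (GRCm38), a span of 427 kb, are MMPs, in the order Mmp13, Mmp12, Mmp1b, Mmp3, Mmp10, Mmp8, Mmp27, Mmp20 and Mmp7. Of the 7 with counts, 7 were higher with MC903 and 6 were lower with paeonol than with MC903, the exception being Mmp12. The 4 nearest genes outside the run moved in both directions with MC903. Dync2h1, before Mmp13, changed by -0.91 ± 0.12 with MC903 and by 0.42 ± 0.12 with paeonol relative to MC903. Birc2, beyond Mmp7, changed by -0.28 ± 0.06 and 0.13 ± 0.06 in the same comparisons. Dcun1d5 and Tmem123, the nearest genes on each side, rose by 0.42 ± 0.07 and 0.41 ± 0.08 with MC903. With paeonol relative to MC903 they changed by -0.21 ± 0.07 (edgeR adjusted p = 0.0508) and 0.19 ± 0.08 (edgeR adjusted p = 0.108), neither of them called.

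**Figure D2:**
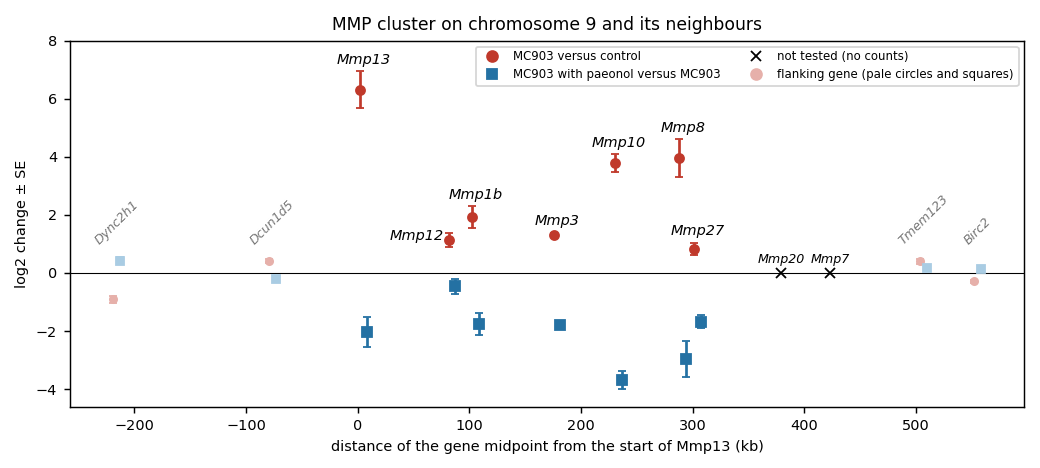
Log2 change ± SE of the chromosome 9 MMP genes and their 4 nearest neighbours, by the distance in kb of the gene midpoint from the start of Mmp13. Circles are MC903 versus control and squares MC903 with paeonol versus MC903, pale for the neighbours, and crosses mark genes without counts. The 7 tested MMPs lie above 0 with MC903 and below it with paeonol, while the neighbours lie within 1 log2 unit of 0.

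The starts of these genes were searched for the binding sequence of AP-1, a dimer of Fos and Jun proteins long known to bind MMP promoters, and for a TATA box. The AP-1 letters were TGANTCA, whose reverse complement has the same lettering, and the TATA letters were TATAAA on either strand. The windows ran from 250 bases before to 50 after the RefSeq start (GRCm38.p6), and 36 of the 55 members had 1 or more. AP-1 letters were found in 7 of the 9 genes of the run and in none of the other 27 members with a window, against 8.97% of 27025 genes. TATA letters were found in 8 of the 9, against 15.7% of all genes. A match describes the letters in a window and is neither a shown binding site nor a cause of a change, and no match says only that these letters are absent from it. The windows of Mmp13, Mmp3 and Mmp10 are printed as examples that hold both motifs, and that of Mmp27, which has neither, for contrast. Mmp27 was also called higher with MC903 and lower with paeonol. Capitals mark the motifs, and each window lies on the plus strand, at chr9:7272264-7272563, chr9:7445572-7445871, chr9:7502092-7502391 and chr9:7571146-7571445 in turn.
Mmp13: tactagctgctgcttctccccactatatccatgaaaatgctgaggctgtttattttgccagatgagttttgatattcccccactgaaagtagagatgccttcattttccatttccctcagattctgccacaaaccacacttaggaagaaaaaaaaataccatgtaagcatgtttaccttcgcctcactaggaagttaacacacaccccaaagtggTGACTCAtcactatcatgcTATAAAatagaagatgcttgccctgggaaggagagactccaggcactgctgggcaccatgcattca
Mmp3: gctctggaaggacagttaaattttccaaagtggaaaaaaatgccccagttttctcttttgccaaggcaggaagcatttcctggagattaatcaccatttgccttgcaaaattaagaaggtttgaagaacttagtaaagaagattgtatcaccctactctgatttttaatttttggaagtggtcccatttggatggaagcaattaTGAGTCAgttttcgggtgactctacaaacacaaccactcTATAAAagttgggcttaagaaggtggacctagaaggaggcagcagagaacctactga
Mmp10: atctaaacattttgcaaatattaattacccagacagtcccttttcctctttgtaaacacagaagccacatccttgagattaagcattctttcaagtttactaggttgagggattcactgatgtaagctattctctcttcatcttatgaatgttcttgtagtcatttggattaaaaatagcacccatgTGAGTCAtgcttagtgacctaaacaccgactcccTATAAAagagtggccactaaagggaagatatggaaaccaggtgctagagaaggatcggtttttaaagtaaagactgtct
Mmp27: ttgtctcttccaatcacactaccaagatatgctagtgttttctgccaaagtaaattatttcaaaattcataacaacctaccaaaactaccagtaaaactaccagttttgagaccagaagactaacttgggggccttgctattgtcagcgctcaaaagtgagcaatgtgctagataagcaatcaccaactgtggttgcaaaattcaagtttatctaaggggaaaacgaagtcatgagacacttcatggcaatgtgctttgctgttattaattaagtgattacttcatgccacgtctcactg
The AP-1 letters began 35, 46 and 63 bases before the start of Mmp13, Mmp3 and Mmp10, followed by the TATA letters at 16, 7 and 29 bases before it. In Mmp1b they began 93 and 49 bases before the start. Mmp8 had TATA letters on the reverse strand and no AP-1 letters. Mmp7 and Mmp20 carry both motifs and had no counts. In Mmp7 the AP-1 letters began 63 bases and the TATA letters 123 and 26 bases before the start. In Mmp20 these letters began 95 and 58 bases before it. In Mmp12 the AP-1 letters began 44 bases before a RefSeq start and the TATA letters 4 bases after it. Whether these letters relate to the changes was not tested.

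The collagenases, a group named for cutting the triple helix of fibrillar collagen, were all higher with MC903 and all lower with paeonol (3 of 3 tested in each comparison). Mmp13, the main interstitial collagenase of the mouse, was at 5.22, 6 and 7.67 CPM in the controls, 364, 449 and 684 with MC903, and 51.8, 108 and 204 with paeonol. No library of one group reached the range of another. The mean went from 6.3 ± 1.25 to 499 ± 165 CPM (SD, n = 3), a 79.3-fold rise (log2 6.31 ± 0.64, edgeR adjusted p = 0.000247). With paeonol it was at 121 ± 77.2 CPM, 4.12-fold below MC903 (log2 -2.04 ± 0.52, edgeR adjusted p = 0.027). That call ended without MC903 2 (edgeR adjusted p = 0.0576), MC903 3 (0.0806) or paeonol 2 (0.0888), and in a fit of those groups alone (0.0688). Without paeonol 3, the highest of its group, the change was -2.65 (edgeR adjusted p = 0.00952). Mmp13 was still 19.3-fold above control with paeonol (log2 4.27 ± 0.59, edgeR adjusted p = 0.00225, and 3.66 without paeonol 3). It was the only tested member called at least 2-fold above control there, and Adamtsl2 the only one called at least 2-fold below it, while 5.73% of all genes met that limit in either direction.

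Mmp8, the collagenase stored by neutrophils, stood at 0.048, 0.213 and 0.355 CPM in control, 2.96, 3.18 and 3.45 with MC903, and 0.795, 0.258 and 0.173 with paeonol. The MC903 libraries lay above all others, and control and paeonol libraries overlapped. Its rise was 15.5-fold (log2 3.95 ± 0.66, edgeR adjusted p = 0.000521), from a control level of few counts, and 4.59 on the log2 scale without control 3. With paeonol it was 7.74-fold lower than with MC903 (log2 -2.95 ± 0.62, edgeR adjusted p = 0.00433), and -3.87 without paeonol 1. Beside this, 3 of 8 tested neutrophil markers rose with MC903 (37.5% called, under the 46.8% of all genes). With paeonol 1 rose and 2 fell (37.5%, beside 29.7% of all genes). The summed level of these markers was 92.0 to 338 CPM in control, 259 to 376 with MC903 and 273 to 308 with paeonol. Ngp was at 0 in the control libraries and Ngp, Ly6g and Elane in the paeonol libraries. The part of neutrophil RNA in the Mmp8 change was not tested. Mmp1b, a rodent relative of interstitial collagenase, rose from 0.864, 0.509 and 0.575 CPM to 1.45, 2.85 and 3.12, and was at 0.954, 0.682 and 0.537 with paeonol. The MC903 group lay above both others, which overlapped. Its changes were 1.93 ± 0.38 (edgeR adjusted p = 0.00148) and -1.77 ± 0.38 (edgeR adjusted p = 0.00461). Its near copy Mmp1a was not among the protein-coding genes of the count table and so is no member. Reads may be shared between the pair.

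**Figure D3:**
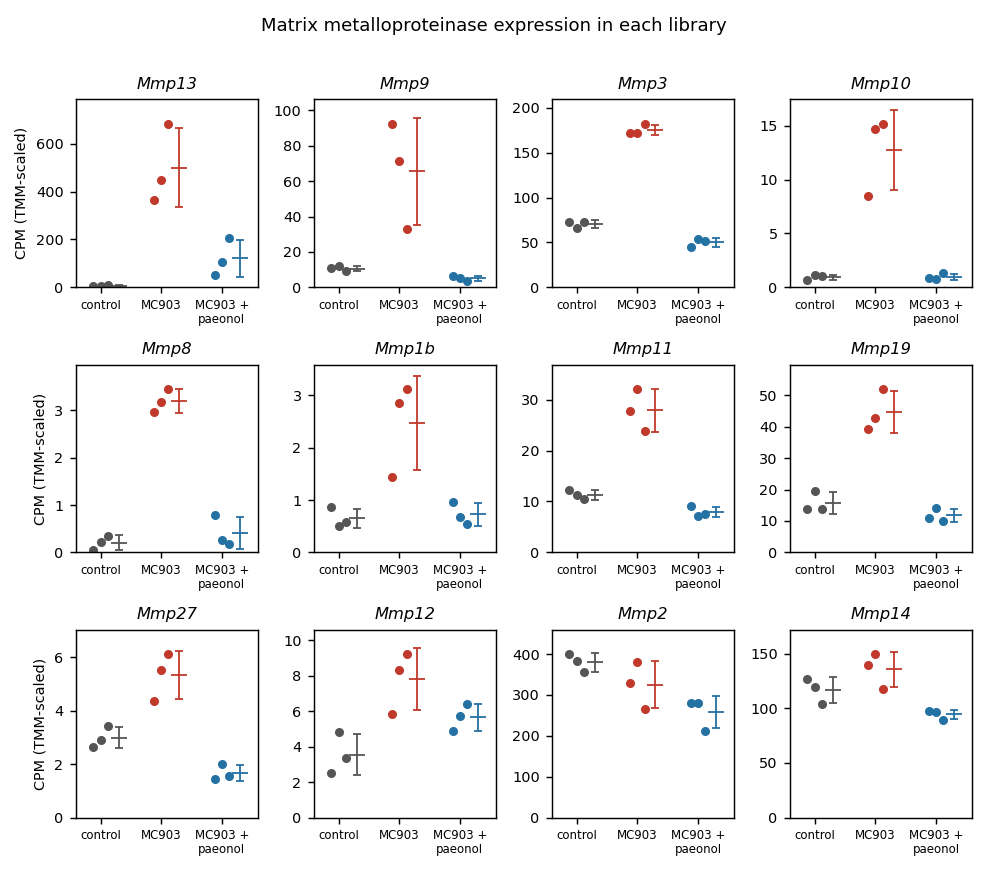
Level of 12 MMPs in each library in CPM, with control in grey, MC903 in red and MC903 with paeonol in blue, and with the mean and SD of the 3 libraries beside the points. With paeonol Mmp13 stays far above its control range and Mmp12 just above its own. Mmp9, Mmp3 and Mmp11 lie below theirs, and Mmp10, Mmp8 and Mmp1b overlap theirs.

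The gelatinases, which digest denatured collagen and basement membrane, did not move alike. Mmp9, made by myeloid cells and by migrating keratinocytes, was at 11.0, 11.7 and 8.97 CPM in control, 92.4, 71.6 and 32.7 with MC903 and 6.31, 5.33 and 3.36 with paeonol. All 3 groups were apart. It rose 6.2-fold with MC903 (log2 2.63 ± 0.40, edgeR adjusted p = 0.00121) and was 13.1-fold lower with paeonol than with MC903 (log2 -3.71 ± 0.43, edgeR adjusted p = 0.000616). Against control the paeonol value of -1.08 ± 0.40 was not called (edgeR adjusted p = 0.0854), although the paeonol libraries lay below all controls. DESeq2 called it there (adjusted p = 0.0311), as did edgeR on those 2 groups alone (adjusted p = 0.00838). Mmp2, the constitutive gelatinase of fibroblasts, was at 400, 384 and 355 CPM in control and 328, 381 and 266 with MC903. With paeonol it was at 281, 279 and 212. MC903 overlapped both other groups, and paeonol lay below control. Its MC903 change of -0.22 ± 0.14 was not called (edgeR adjusted p = 0.221). That change was called when scaled by library totals (edgeR adjusted p = 0.043) and with replicate number in the fit (0.0346). Against control Mmp2 fell by 0.56 ± 0.14 log2 units with paeonol (edgeR adjusted p = 0.0132).

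The stromelysins Mmp3, Mmp10 and Mmp11 all rose with MC903 and all fell with paeonol. Mmp3, which cuts proteoglycans and activates collagenase precursors, had the tightest groups, at 72.6, 65.6 and 73.2 CPM in control, 171, 172 and 182 with MC903 and 44.4, 53.9 and 52.0 with paeonol. The 3 groups did not overlap, and paeonol lay lowest. The changes were 1.31 ± 0.08 (edgeR adjusted p = 4.87e-07), -1.81 ± 0.08 (edgeR adjusted p = 6.94e-07) and, against control, -0.49 ± 0.08 (edgeR adjusted p = 0.000781). Mmp10, a stromelysin of wound-edge keratinocytes, went from 0.672, 1.10 and 1.01 CPM to 8.46, 14.7 and 15.2, and stood at 0.865, 0.793 and 1.3 with paeonol. It rose 13.7-fold (log2 3.78 ± 0.31, edgeR adjusted p = 2.78e-06) and was 12.9-fold lower with paeonol (log2 -3.69 ± 0.31, edgeR adjusted p = 1.31e-05). Control and paeonol overlapped, with a difference of 0.09 ± 0.30 (edgeR adjusted p = 0.864), or -0.08 when scaled by library totals. Mmp11, a stromelysin of stromal fibroblasts, was at 12.2, 11.3 and 10.4 CPM, then 27.8, 32.1 and 23.8 with MC903, then 9.06, 7.14 and 7.52 with paeonol. Its groups were apart in the order paeonol, control, MC903. It rose by 1.3 ± 0.14 (edgeR adjusted p = 1.65e-05) and fell by 1.82 ± 0.14 (edgeR adjusted p = 8.89e-06). Its fall of 0.51 ± 0.14 against control (edgeR adjusted p = 0.015) was no longer called without control 1 (0.055) or paeonol 2 (0.0634).

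Macrophage elastase, Mmp12, was at 2.50, 4.82 and 3.35 CPM in control, 5.87, 8.34 and 9.22 with MC903 and 4.87, 5.72 and 6.40 with paeonol. MC903 lay above control, and paeonol overlapped MC903 and lay just above control. It rose by 1.14 ± 0.25 (edgeR adjusted p = 0.00319), and its paeonol change of -0.46 ± 0.25 was not called (edgeR adjusted p = 0.198). Against control the paeonol value of 0.67 ± 0.25 was not called (edgeR adjusted p = 0.0659). DESeq2 called it there (adjusted p = 0.033), as did edgeR without control 2 (adjusted p = 0.0182). Of the macrophage and monocyte markers, 12 of 12 rose with MC903 and 12 of 12 fell with paeonol. Of all genes tested, 23% were higher with MC903 and 14.3% lower with paeonol versus MC903. These markers summed to 1003 to 1102 CPM in control, 1824 to 2034 with MC903 and 542 to 877 with paeonol. Their part in the MMP changes was not tested. Keratinocyte stress markers, which moved with the same groups, are keratins and cornified-envelope genes of activated epidermis. Their summed level was 592 to 1299 CPM in control, 20828 to 22620 with MC903 and 5197 to 9583 with paeonol, with 6 of 6 higher and then 4 of 6 lower, and their part in the MMP changes was not tested either.

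Mmp19 and Mmp27 followed the same course, and Mmp23 ran the other way. Mmp19, which cuts basement membrane proteins, was at 13.9, 19.7 and 13.8 CPM, then 39.2, 42.7 and 52.0, then 11.0, 14.1 and 10.1. MC903 lay above both other groups, which overlapped. It rose by 1.5 ± 0.17 (edgeR adjusted p = 4.35e-05) and fell by 1.93 ± 0.18 (edgeR adjusted p = 3.22e-05). Mmp27, of the stromelysin type and placed in the chromosome 9 run, was at 2.66, 2.92 and 3.41 CPM, then 4.37, 5.51 and 6.12, then 1.45, 1.99 and 1.57. All its groups were apart, with paeonol the lowest. It rose by 0.83 ± 0.22 (edgeR adjusted p = 0.00781) and fell by 1.67 ± 0.22 (edgeR adjusted p = 0.000224). Mmp23, a small membrane-anchored MMP, was at 11.6, 11.4 and 12.3 CPM in control, 3.88, 5.19 and 3.67 with MC903, and 7.90, 7.67 and 5.92 with paeonol. Paeonol lay between the other groups without overlap. It fell by 1.47 ± 0.17 (edgeR adjusted p = 3.62e-05) and rose by 0.75 ± 0.17 with paeonol (edgeR adjusted p = 0.00656), to a level still 0.72 ± 0.17 below control on the log2 scale (edgeR adjusted p = 0.00795).

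Apart from Mmp23, 6 MMPs were listed as membrane-bound, working at the cell surface. With MC903, 1 of these was lower and none was higher. That was Mmp15, at -0.62 ± 0.15 (edgeR adjusted p = 0.00546), and it rose by 0.60 ± 0.15 with paeonol (edgeR adjusted p = 0.0116), a call that ended without MC903 3 (0.0504) or paeonol 2 (0.0555). Mmp14, the activator of the Mmp2 precursor, was at 127, 119 and 104 CPM in control, 139, 149 and 118 with MC903 and 97.6, 96.3 and 89.7 with paeonol. Paeonol lay below both other groups, which overlapped. Mmp14 fell by 0.52 ± 0.10 with paeonol relative to MC903 (edgeR adjusted p = 0.00186), and its MC903 change of 0.22 ± 0.10 was not called (edgeR adjusted p = 0.0877). That MC903 change was called without MC903 3 (edgeR adjusted p = 0.0183) and with replicate number in the fit (0.0231). Mmp16, Mmp17, Mmp24 and Mmp25 were not called in any comparison. Mmp28, an MMP of keratinocytes, fell by 0.40 ± 0.11 with MC903 (edgeR adjusted p = 0.0129), and not when control 1, MC903 1 or MC903 2 was left out (0.0521, 0.0545 and 0.0573).

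The summed MMP level shows which transcripts made up the MMP RNA, and does not measure enzyme. In CPM per kb of exon, the sum of the 22 MMPs was 200 to 218 in control, 422 to 519 with MC903 and 173 to 209 with paeonol. Mmp2 was 52.6% to 54.6% of that sum in control and 15.2% to 23.8% with MC903. Mmp13 was 0.896% to 1.43% in control and 32.3% to 49.3% with MC903. With paeonol Mmp2 was 30.2% to 48.3% and Mmp13 11.2% to 36.7%. The summed level was thus within or below the control range with paeonol while its makeup was not that of control.

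ADAMTS enzymes that cut aggrecan and versican leaned upward with MC903, with 5 of 7 higher and 1 lower, and with paeonol 1 was higher and 4 were lower than with MC903. Adamts4, an aggrecanase, was at 3.95, 5.48 and 2.75 CPM in control, 17.8, 16.3 and 19.3 with MC903 and 4.10, 3.74 and 3.64 with paeonol. MC903 was apart from both others, which overlapped. It rose 4.38-fold (log2 2.13 ± 0.22, edgeR adjusted p = 1.21e-05) and fell by 2.22 ± 0.22 (edgeR adjusted p = 3.26e-05). Adamts15, a versicanase, was at 30.2, 31.9 and 30.3 CPM, then 57.5, 55.3 and 39.9, then 24.6, 25 and 16.0. All its groups were apart. It rose by 0.72 ± 0.18 (edgeR adjusted p = 0.00744) and fell by 1.22 ± 0.18 (edgeR adjusted p = 0.00078). Adamts20, which clears versican in embryonic skin, was the member of this list that fell, from 5.28, 7.27 and 6.78 CPM to 2.99, 2.20 and 1.92, with 3.96, 3.84 and 3.28 after paeonol. Its groups were apart, and it fell by 1.44 ± 0.22 with MC903 (edgeR adjusted p = 0.000231). The paeonol rise of 0.64 ± 0.22 (edgeR adjusted p = 0.0469) ended without control 2 or control 3 and without any 1 of MC903 2, MC903 3 and the paeonol libraries, at adjusted p-values of 0.0501 to 0.156. It also ended with no filter (0.0611) and in a fit of those groups alone (0.0724).

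Adamts5, Adamts9 and Adamts1, which also cut aggrecan or versican, rose with MC903 too. Adamts5 rose by 0.61 ± 0.18 (edgeR adjusted p = 0.0189) and fell by 0.94 ± 0.18 with paeonol (edgeR adjusted p = 0.0035). Adamts9 rose by 0.65 ± 0.18 (edgeR adjusted p = 0.0105) and fell by 0.92 ± 0.18 (edgeR adjusted p = 0.00255). Adamts1, at 116, 101 and 113 CPM in control 126, 133 and 138 with MC903 and 134, 116 and 142 with paeonol, rose by 0.26 ± 0.08 (edgeR adjusted p = 0.0218) and was not called with paeonol relative to MC903 (-0.02, edgeR adjusted p = 0.916, or 0.011 when scaled by library totals). These MC903 calls were sensitive to how they were fitted. Scaled by library totals, Adamts1, Adamts5 and Adamts9 had edgeR adjusted p-values of 0.493, 0.0895 and 0.0531. Without control 2, MC903 2 or MC903 3 Adamts1 had edgeR adjusted p-values of 0.0912, 0.0567 and 0.0746. Without control 1, control 3 or MC903 2 Adamts5 had values of 0.0641, 0.0688 and 0.0547, and without MC903 3 Adamts9 had 0.0517. Adamts8 was not called in any comparison.

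The procollagen N-proteinases, which trim the amino end of fibrillar procollagens, had 2 of 3 lower with MC903 and 2 of 3 higher with paeonol. Adamts14 was at 123, 99.8 and 136 CPM in control, 37.7, 29.4 and 30.3 with MC903 and 77.7, 64.3 and 62.2 with paeonol. The groups were apart, with paeonol between the others. It fell 3.69-fold (log2 -1.88 ± 0.14, edgeR adjusted p = 3.61e-06) and rose by 1.07 ± 0.14 with paeonol (edgeR adjusted p = 0.000319), still 0.82 ± 0.14 log2 units below control (edgeR adjusted p = 0.00149). Adamts3 was at 2.08, 3.53 and 2.53 CPM, then 0.822, 1.26 and 1.13, then 3.34, 1.84 and 1.53. MC903 lay below both other groups, which overlapped. It fell by 1.34 ± 0.34 (edgeR adjusted p = 0.00722), and its paeonol rise of 1.07 ± 0.34 (edgeR adjusted p = 0.0366) ended in a fit of those groups alone (0.0507) and without control 3 (0.0514), MC903 1 (0.115), MC903 2 (0.0565), MC903 3 (0.0807) or paeonol 1 (0.176). Adamts2, the main N-proteinase of skin, was at 104, 104 and 87.8 CPM in control, 106, 97.6 and 82.8 with MC903 and 65.7, 62.4 and 56.9 with paeonol. Control and MC903 overlapped and paeonol was below both. Its MC903 change of -0.05 ± 0.10 was not called (edgeR adjusted p = 0.731). With paeonol it fell by 0.63 ± 0.10 from MC903 (edgeR adjusted p = 0.000691) and by 0.68 ± 0.10 from control (edgeR adjusted p = 0.000509).

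Of the 9 other ADAMTS, 1 was higher with MC903 and 5 were lower. Adamts19, of unsettled substrate, was the higher member, at 0.336, 0.705 and 0.389 CPM in control, 4.15, 2.31 and 3.30 with MC903 and 0.318, 0.590 and 0.786 with paeonol. MC903 was apart from the overlapping other groups. It rose 6.8-fold (log2 2.77 ± 0.42, edgeR adjusted p = 0.000219) and fell by 2.53 ± 0.41 (edgeR adjusted p = 0.000871). Adamts10, which binds fibrillin microfibrils, was at 70.3, 74.0 and 67.1 CPM, then 29.1, 38.1 and 31.1, then 50.6, 49.9 and 41.6. Paeonol lay between the others without overlap. It fell by 1.10 ± 0.11 (edgeR adjusted p = 9.25e-06) and rose by 0.53 ± 0.11 (edgeR adjusted p = 0.00305), to 0.57 ± 0.11 below control (edgeR adjusted p = 0.00196). Adamts17, a relative also tied to fibrillin, was at 3.10, 3.67 and 4.87 CPM, then 2.09, 1.48 and 2.27, then 4.49, 3.85 and 4.51. MC903 was below both other groups, which overlapped. It fell by 0.99 ± 0.24 (edgeR adjusted p = 0.00485) and rose by 1.14 ± 0.24 (edgeR adjusted p = 0.004).

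Several calls in this list were at low counts or rested on single libraries. Adamts7, which cuts cartilage oligomeric matrix protein, was at 6.64, 6.59 and 4.41 CPM in control, 7.71, 7.30 and 7.21 with MC903 and 4.93, 4.02 and 1.55 with paeonol. MC903 lay above paeonol, and control overlapped paeonol. It fell by 1.08 ± 0.34 from MC903 (edgeR adjusted p = 0.0369), and was not called in a fit of those groups alone (0.0576) or without control 1, control 2, paeonol 2 or any MC903 library (adjusted p = 0.0507 to 0.0878). Adamts16 had 13, 19 and 19 counts in control and 0 in each MC903 library, at least 1.25-fold lower against a floor of 12 counts per library (edgeR adjusted p = 0.0245, and 0.0568 to 0.0626 without control 2, control 3 or any MC903 library). Adamts6 fell by 0.57 ± 0.18 (edgeR adjusted p = 0.0201, and 0.0533 to 0.081 without control 2, control 3, MC903 1 or MC903 3). Adamts18 fell by 1.53 ± 0.56 (edgeR adjusted p = 0.0422), by 2.56 without MC903 1, and was not called in a fit of those groups alone (0.0576) or without any 1 of the controls, MC903 2, MC903 3, paeonol 1 or paeonol 2 (0.0517 to 0.133). Adamts12 fell with paeonol by 0.55 ± 0.18 (edgeR adjusted p = 0.0379), a call that ended when scaled by library totals (0.0573), in a fit of those groups alone (0.0733) and without any library other than MC903 3 and paeonol 1 (0.0523 to 0.161). Adamts13 was not called in any comparison.

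**Figure D4:**
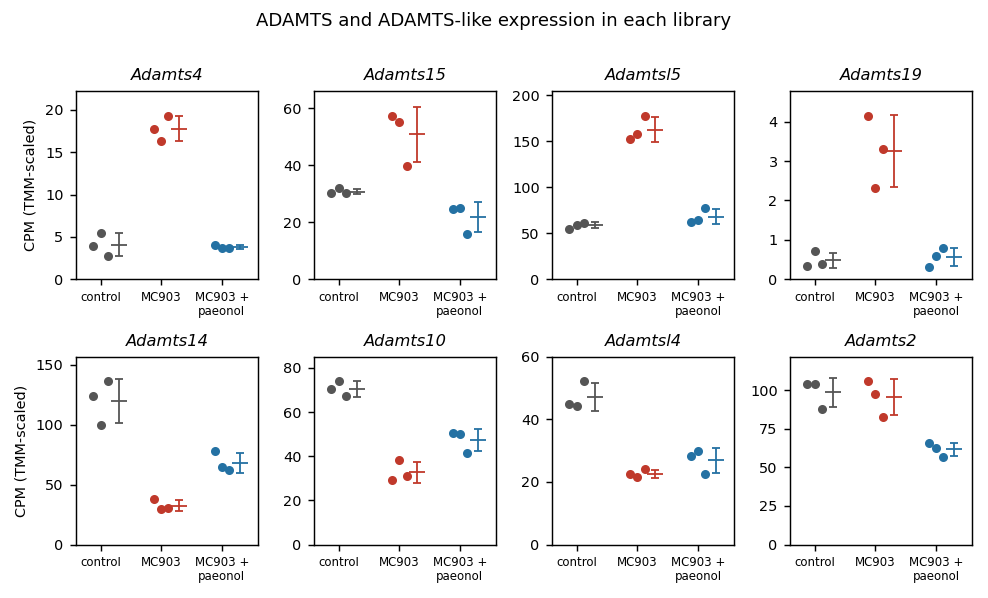
Level of 8 ADAMTS and ADAMTS-like genes in each library in CPM, with control in grey, MC903 in red and MC903 with paeonol in blue, and the mean and SD of 3 libraries beside the points. Adamts4, Adamtsl5 and Adamts19 peak with MC903, Adamts14 and Adamts10 are lowest with it, and Adamts2 is lowest with paeonol.

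ADAMTS-like proteins have the binding domains of ADAMTS without the protease. With MC903, 1 of 5 was higher and 3 were lower. Adamtsl5, which binds microfibrils, was at 54.8, 59.4 and 61.0 CPM, then 152, 158 and 178, then 61.9, 64.3 and 77.4. The groups were apart, with paeonol just above control. It rose by 1.48 ± 0.09 (edgeR adjusted p = 6.35e-07), fell by 1.26 ± 0.09 (edgeR adjusted p = 6.74e-06) and differed from control by 0.22 ± 0.09 with paeonol (edgeR adjusted p = 0.101). Adamtsl4, another microfibril-binding protein, was at 44.8, 44.4 and 52.3 CPM in control, 22.5, 21.5 and 24.1 with MC903, and 28.4, 29.9 and 22.4 with paeonol. MC903 and paeonol overlapped below control. It fell by 1.05 ± 0.11 with MC903 (edgeR adjusted p = 1.86e-05) and was 0.81 ± 0.11 log2 units below control with paeonol (edgeR adjusted p = 0.00037). Adamtsl2, which binds the latent form of TGF-β, fell by 0.72 ± 0.21 with MC903 (edgeR adjusted p = 0.0131, and 0.0508 without control 2) and was 2.03-fold below control with paeonol (edgeR adjusted p = 0.0034). Adamtsl3 fell by 0.83 ± 0.20 with MC903 (edgeR adjusted p = 0.00604). Its rise of 0.69 ± 0.20 with paeonol (edgeR adjusted p = 0.025) ended without MC903 1, MC903 3, paeonol 1 or paeonol 2 (0.0529 to 0.0934). Adamtsl1 was not called in any comparison.

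The TIMPs split by member. Timp1, the inducible inhibitor, was at 12.7, 25.5 and 12.1 CPM in control, 41.9, 45.5 and 55.1 with MC903, and 17.9, 12.3 and 13.2 with paeonol. MC903 was above the other groups, which overlapped. It rose 2.83-fold (log2 1.5 ± 0.30, edgeR adjusted p = 0.00368) and fell by 1.72 ± 0.30 (edgeR adjusted p = 0.00358). Timp2, which inhibits MMPs and also helps Mmp14 activate the Mmp2 precursor, was at 574, 571 and 509 CPM, then 363, 389 and 313, then 406, 354 and 287. Control was above both treated groups, which overlapped. It fell by 0.64 ± 0.12 with MC903 (edgeR adjusted p = 0.00151). Its paeonol difference from MC903 was -0.02 ± 0.12 (edgeR adjusted p = 0.913), or 0.0077 when scaled by library totals. Timp3, which is held in the matrix and also inhibits aggrecanases, was at 502, 567 and 496 CPM, then 249, 249 and 262, then 377, 365 and 267. All groups were apart. It fell 2.06-fold (log2 -1.04 ± 0.11, edgeR adjusted p = 2.99e-05). Its rise of 0.41 ± 0.11 with paeonol (edgeR adjusted p = 0.0199) ended without MC903 1 (0.0617), MC903 2 (0.0651), paeonol 1 (0.0709) or paeonol 2 (0.0784). Timp4, the inhibitor with the narrowest tissue range, was at 17.9, 20.9 and 18.6 CPM, then 23.0, 21.7 and 26.6, then 9.38, 9.79 and 12.6. MC903 was above control and paeonol below it. Its MC903 change of 0.31 ± 0.13 was not called (edgeR adjusted p = 0.0703). That change was called in a fit of those groups alone (edgeR adjusted p = 0.0364) and without paeonol 3 (0.0332). Timp4 fell by 1.17 ± 0.13 with paeonol (edgeR adjusted p = 8.77e-05).

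Per kb of exon, the summed TIMP level was 208 to 248 in control, 175 to 185 with MC903 and 124 to 172 with paeonol. Timp1 made up 6.34% to 11.6% of it in control, 27% to 34.7% with MC903 and 9.17% to 12% with paeonol. Beside the MMP sums above, the MMP total was higher than the TIMP total in every MC903 library and in every paeonol library. In control the TIMP total was the higher in every library, although the ranges of these totals overlapped.

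**Figure D5:**
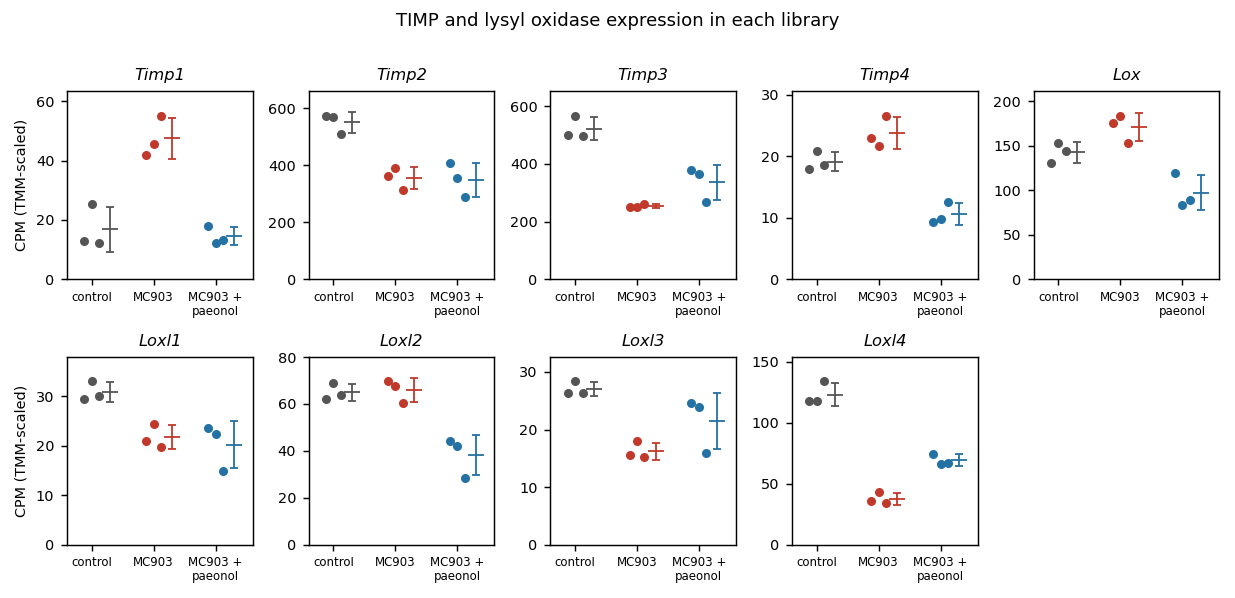
Level of the 4 TIMPs and 5 lysyl oxidases in each library in CPM, with control in grey, MC903 in red and MC903 with paeonol in blue, and the mean and SD of 3 libraries beside the points. Timp1 peaks with MC903, Timp3 and Loxl4 are lowest with it, and Timp4, Lox and Loxl2 are lowest with paeonol.

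Of the 5 lysyl oxidases, 3 were lower with MC903 and none was higher. Loxl4, a collagen-crosslinking relative of Lox, was at 118, 118 and 134 CPM in control, 35.4, 43.4 and 34.5 with MC903 and 74.7, 66.2 and 67.0 with paeonol. The groups were apart, with paeonol in the middle. It fell 3.26-fold (log2 -1.71 ± 0.10, edgeR adjusted p = 4.23e-07) and rose by 0.88 ± 0.10 (edgeR adjusted p = 6.41e-05), remaining 0.83 ± 0.10 below control (edgeR adjusted p = 0.000124). Loxl3 was at 26.3, 28.4 and 26.3 CPM, then 15.6, 17.9 and 15.2, then 24.7, 23.9 and 15.9. MC903 lay below control, and paeonol 3 lay within the MC903 range while paeonol 1 and paeonol 2 lay above it. It fell by 0.73 ± 0.15 with MC903 (edgeR adjusted p = 0.00172), and its paeonol difference of 0.41 ± 0.15 was not called (edgeR adjusted p = 0.0611, and 0.00174 without paeonol 3). Loxl1, which crosslinks elastin, was at 29.5, 33.1 and 30.0 CPM, then 21.0, 24.4 and 19.6, then 23.5, 22.3 and 14.9. Control was above both treated groups, which overlapped. It fell by 0.51 ± 0.15 (edgeR adjusted p = 0.0183), a call that ended without control 2 (0.0611), MC903 1 (0.0585) or MC903 3 (0.0715).

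Lox and Loxl2 were not called with MC903 and fell with paeonol. Lox, the founding collagen and elastin crosslinker, was at 130, 154 and 144 CPM in control, 176, 184 and 153 with MC903, and 120, 83.4 and 88.7 with paeonol. Control and MC903 overlapped, and paeonol was below both. Its MC903 change of 0.26 ± 0.13 was not called (edgeR adjusted p = 0.135). That change was called in a fit of those groups alone (edgeR adjusted p = 0.0292) and without paeonol 1 (0.0206). Lox fell by 0.81 ± 0.13 with paeonol (edgeR adjusted p = 0.00125). Loxl2, which acts on basement membrane collagen, was at 62.0, 69.0 and 63.6 CPM in control, 69.8, 67.9 and 60.3 with MC903, and 44.1, 42.0 and 28.5 with paeonol. Paeonol lay below the other groups, which overlapped. Its MC903 change was 0.02 ± 0.14 (edgeR adjusted p = 0.907), or -0.17 when scaled by library totals, and it fell by 0.79 ± 0.14 with paeonol (edgeR adjusted p = 0.00216). Per kb of exon, Lox was 33.6% to 36.1% of the summed lysyl oxidase level in control and 52.9% to 54.2% with MC903. Loxl4 was 31.4% to 35.9% of that sum in control and 12.4% to 14.2% with MC903.

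Marker genes of other cell types of the ear changed too, not all in the same direction. Of all genes tested, 46.8% were called with MC903 and 29.7% with paeonol versus MC903. Fibroblast markers summed to 8828 to 9626 CPM in control, 3018 to 4149 with MC903 and 4344 to 5491 with paeonol, with 7 of 10 lower and 2 higher with MC903, then 4 higher and 2 lower with paeonol. Cartilage markers summed to 495 to 617, 209 to 240 and 303 to 401 CPM, with 10 of 11 lower and then 9 of 11 higher. Of the cartilage genes Matn1 was at 0 in all libraries and Matn3 in those of MC903. Skeletal muscle markers had 15 of 16 lower with MC903. With paeonol 5 were higher and 1 lower (37.5% called), and 10 were not called. Of the adipocyte markers, 11 of 11 were lower with MC903. The part of these cell types in the falls of Adamts14, Adamts10, Timp3 and Loxl4 was not tested. Endothelial markers had 3 of 8 lower with MC903 (37.5%) and 7 of 8 lower with paeonol relative to MC903 (87.5%). The paeonol direction was that of Adamts2, Timp4, Lox and Loxl2, while the summed fibroblast markers went the other way. The part of either cell type in those falls was not tested.

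Other genes of the pathway, from 4 lists, changed in both directions, beside the shares of all genes called given above (46.8% with MC903, 29.7% with paeonol versus MC903 and 30.9% with paeonol versus control). In the plasmin and activation list, 5 of 14 tested were higher and 5 lower with MC903, and 4 were higher and 3 lower with paeonol. Lrp1, a receptor that clears proteases and their inhibitors, rose by 0.75 ± 0.06 (edgeR adjusted p = 1.61e-06) and fell by 0.94 ± 0.06 (edgeR adjusted p = 1.91e-06). Plaur, the urokinase receptor, rose by 1.51 ± 0.19 (edgeR adjusted p = 7.34e-05), and A2m, a broad protease inhibitor, fell by 3.00 ± 0.24 (edgeR adjusted p = 1.1e-05). Pcsk6, a proprotein convertase, fell by 1.04 ± 0.07 (edgeR adjusted p = 1.16e-06) and rose by 0.86 ± 0.07 with paeonol (edgeR adjusted p = 1.45e-05). In the ADAM and astacin list, 5 of 13 were higher and 5 lower with MC903, then 1 higher and 3 lower with paeonol, a share of 30.8% that is near the 29.7% of all genes. Adam12, a membrane-bound sheddase, rose by 1.12 ± 0.14 (edgeR adjusted p = 4.51e-05) and Adam9 by 0.52 ± 0.07 (edgeR adjusted p = 0.000107). Pcolce2, an enhancer of procollagen C-proteinase, fell by 1.31 ± 0.11 (edgeR adjusted p = 4.6e-06) and rose by 0.63 ± 0.11 (edgeR adjusted p = 0.00154). Its relative Pcolce fell by 0.77 ± 0.09 (edgeR adjusted p = 3.93e-05), and Bmp1, the proteinase itself, fell by 0.52 ± 0.06 with paeonol (edgeR adjusted p = 8.6e-05).

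Lysosomal matrix-degrading genes were higher with MC903 in 7 of 9 cases and lower in none, and with paeonol 1 was higher and 6 were lower. Hyal1, a hyaluronidase, rose by 1.32 ± 0.09 (edgeR adjusted p = 9.26e-07) and fell by 1.04 ± 0.09 (edgeR adjusted p = 1.49e-05). Hpse, heparanase, rose by 1.33 ± 0.16 (edgeR adjusted p = 5.68e-05), and Ctsd, a cathepsin, was the gene that rose with paeonol, by 0.38 ± 0.07 (edgeR adjusted p = 0.00169). Of the 18 genes of collagen modification and fibre assembly, 5 were higher and 7 lower with MC903. With paeonol 2 were higher and 5 lower than with MC903, and against control 2 were higher and 12 lower. P4hb, a subunit of collagen prolyl hydroxylase, rose by 0.73 ± 0.06 with MC903 (edgeR adjusted p = 3.47e-06). Plod1, a lysyl hydroxylase whose product prepares collagen for crosslinking, rose by 0.76 ± 0.09 (edgeR adjusted p = 3.43e-05) and fell by 1.3 ± 0.09 (edgeR adjusted p = 4.84e-06). Postn, periostin, fell by 2.48 ± 0.12 (edgeR adjusted p = 3.19e-07) and rose by 1.93 ± 0.12 (edgeR adjusted p = 3.66e-06), and P4ha2, a prolyl hydroxylase, fell by 0.84 ± 0.11 (edgeR adjusted p = 7.93e-05).

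The comparison of paeonol with control asks which levels differ from control when MC903 and paeonol were given together, whatever the call with MC903 alone. Only Mmp13 and Adamts1 were called higher, and the Adamts1 call (log2 0.25 ± 0.08, edgeR adjusted p = 0.0418) was lost when scaled by library totals (0.47), without control 2 (0.156), control 3 (0.0794), MC903 2 (0.0599), MC903 3 (0.0514), paeonol 1 (0.079) or paeonol 3 (0.154), and in a fit of those groups alone (0.0656). The 20 lower members included 3 of 4 TIMPs, 4 of 5 lysyl oxidases, 2 of 3 stromelysins and 2 of 3 procollagen N-proteinases. The Timp2, Timp3 and Timp4 changes were -0.66 ± 0.12, -0.63 ± 0.11 and -0.85 ± 0.13 (edgeR adjusted p = 0.00243, 0.00193 and 0.000715), and that of Timp1 was -0.21 ± 0.30 (edgeR adjusted p = 0.65). Among lysyl oxidases, the lower members lay between -0.83 and -0.55, and Loxl3 at -0.33 ± 0.15 was not called (edgeR adjusted p = 0.121). Some of these calls rested on single libraries. Mmp14 (-0.30 ± 0.10, edgeR adjusted p = 0.0326) was not called without any 1 of control 1, control 2 and the paeonol libraries (0.0607 to 0.121). Mmp27 (-0.84 ± 0.22, edgeR adjusted p = 0.0131) was not called without control 3 (0.0545). Adamts20 (-0.80 ± 0.22, edgeR adjusted p = 0.0148) was not called without control 2, control 3 or paeonol 3 (0.0521 to 0.059), and Adamts12 (-0.62 ± 0.18, edgeR adjusted p = 0.0202) without control 1, control 3, paeonol 2 or paeonol 3 (0.0533 to 0.0782).

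Exons of 16 members overlap a gene on the opposite strand, by 30 to 1733 bases. The libraries mark strand, but the sources used here do not say whether counting used it, and without it reads of such pairs cannot be told apart. This touches Timp3, Adamts9, Mmp19, Mmp24, Loxl3, Adamts8, Mmp28, Loxl2, Adamts4, Mmp11, Mmp7, Adamts7, Timp4 and Lox. The neighbouring Mmp12 and Mmp1b overlap each other.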

How the data were processed

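Messenger RNA of mouse ear was sequenced in 9 libraries. The submitters' processing notes name HISAT2 2.0.4, StringTie 1.3.4d, cutadapt and the build GRCm38. The sources used here do not give their roles, the annotation or a strand setting. The whole numbers per gene that the authors deposited were treated as unscaled estimated counts. Because a count of 4 is 1.9 to 2.23 times as common as its neighbours, the floor for a library without counts was set at 12. Groups came from the treatment label, replicate numbers from the titles. Of 55401 features, 55141 matched a symbol and 21925 passed filterByExpr (minimum count 10, minimum total 15), and 0.04% of counts lay outside them. All libraries were fitted together with edgeR 4.0.16 in R 4.3.3 and data.table version 1.17.8 (TMM factors 0.942 to 1.09, robust quasi-likelihood), and the 3 pairs of groups were compared two-sided. SE was taken from the log2 change and its F value. Replicates differed by a chi-square of 6.51 to 14.4 per degree of freedom on counts divided by 4, more than counting noise. An exact permutation test of 3 against 3 libraries cannot go below p = 0.1. Levels per kb divide CPM by the combined length of all annotated exons of a gene.

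The members and gene lists were chosen with earlier results of these data known. Values in every library are given for members called in MC903 versus control or paeonol versus MC903 with a log2 change of 1 or more and a log2 CPM averaging 0 or more, and for all TIMPs and lysyl oxidases. Those of Mmp2, Mmp14, Adamts1, Adamts2 and Adamts16 were chosen for their roles or after their values were seen. In each list of other genes, the 2 called genes with the smallest p in each direction with MC903, and the 1 in each direction with paeonol, are named. Alternatives were DESeq2 1.42.0, its size factors, library totals, no filter, a mean CPM of 1, 2-group fits, the replicate block, counts divided by 4 and leaving out each library. Promoters are RefSeq sequences.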

Additional observations from a re-analysis of the deposited data

How the results depend on the processing

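With MC903 versus control, 37 members were called, and 31 to 38 when any 1 library was left out. For paeonol versus MC903 these were 33 and 26 to 33, and for paeonol versus control 22 and 18 to 24. Over DESeq2, its size factors, library totals, no filter, a mean CPM of 1, 2-group fits and counts divided by 4, all counts stayed within 1.5 times the main value. Of the member calls, 28 of 37, 25 of 33 and 16 of 22 were kept under every alternative. Some member changes not called in the main fit were called under an alternative. When library totals alone set the scale, the median over all genes was -0.205, 0.0304 and -0.197 (log2) in the 3 comparisons, with 15 higher and 21 lower members for MC903. With the replicate block, 40, 35 and 28 members were called. Same-numbered libraries correlated at -0.0113 to 0.04 in their deviations from the group means, and not every library correlated best with its own number. With 3 libraries a group, these values cannot settle whether the numbers pair the samples.

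Changes that turned sign were all uncalled, and the cause was not tested. Scaled by library totals they were Loxl2 (-0.17) and Adamtsl1 with MC903, Timp2 (0.0077) and Adamts1 (0.011) with paeonol versus MC903, and Mmp10 (-0.078), Adamts17 (-0.020) and Mmp17 with paeonol versus control. With each library left out in turn, among the members whose values are given, Loxl2 with MC903 ranged from -0.017 to 0.086 and Adamts2 from -0.13 to 0.047. For paeonol versus MC903, Timp2 ranged from -0.14 to 0.10, Loxl1 from -0.22 to 0.080 and Adamts1 from -0.082 to 0.065. For paeonol versus control, Mmp10 ranged from -0.16 to 0.23, Timp1 from -0.40 to 0.22, Adamts4 from -0.30 to 0.19, Adamts19 from -0.072 to 0.63 and Mmp1b from -0.073 to 0.42. Depth limits the members near the floor of 12 counts per library (0.192 to 0.235 CPM), such as Mmp8, Adamts16 and Mmp24.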

Other observations

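Within the paeonol group, the libraries did not share the members evenly. Paeonol 3 was the lowest of its 3 libraries for 32 of the 52 tested members (61.5%), against 35.6% of all genes tested. Paeonol 1 was the highest for 30 members (57.7%), against 34.5% of all genes. In the control and MC903 groups, replicate 2 was the highest for 27 and 21 members (51.9% and 40.4%, against 34.7% and 32.1% of all genes). MC903 3 was the lowest of its group for 24 members (46.2%, against 33.9% of all genes). Mmp13 went the other way from most members, with its highest paeonol level in paeonol 3. The deposited labels give no property of these libraries that sets them apart.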
